A study of Mus musculus with 14 samples.

Results

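The transcripts of 8 polypeptide GalNAc transferases, Galnt1, Galnt2, Galnt3, Galnt4, Galnt6, Galnt7, Galnt10 and Galnt12, were followed in whole mouse ileum. They were the rows of the authors' deposited expression table that carry these symbols, 8 of 46855 genes. RNA had been sequenced in 14 libraries, all from wild-type mice of the inbred C57BL/6N strain. Untreated mice gave 4 libraries at postnatal day 24 (P24) and 4 at day 14 (P14). Injected mice gave 3 libraries with recombinant mouse IL-22 (rmIl22) and 3 with phosphate-buffered saline (PBS). Injections at days 14 and 15 held 100 µL, with rmIl22 at 0.1 µg per g of mouse or with no cytokine, and tissue was taken at day 16. The labels' age field disagrees with that schedule (day 24 under rmIl22, day 14 under PBS), and groups were taken from the titles. P14 and P24 libraries are named here by the numbers in the deposited column headers.

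GalNAc transferases start mucin-type O-glycosylation in the Golgi by moving N-acetylgalactosamine from UDP-GalNAc onto serine or threonine of a passing protein. Other enzymes then extend this first sugar into the chains that make up much of the mass of a mucin. The family divides by acceptor. Galnt1, Galnt2, Galnt3 and Galnt6 act mainly on bare peptides, while Galnt4, Galnt7, Galnt10 and Galnt12 prefer, or need, peptides that already carry GalNAc. Galnt3 and Galnt6 are close relatives, as are Galnt4 and Galnt12, and Galnt7 and Galnt10. In the intestine the family is known for its work on the mucus and on the glycoproteins of the epithelial surface.

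Galnt3 was called lower at P24 while its relative Galnt6 was not called, and their promoter windows are shown for that reason. RefSeq's promoter table (GRCm38.p6, 250 bases before to 50 after the annotated start) held windows for 4 of the 8 genes, namely Galnt3, Galnt6, Galnt7 and Galnt10. The windows of Galnt3 (chromosome 2, 66124744–66125043, minus strand) and of the 5′-most Galnt6 start (chromosome 15, 100729327–100729626, minus strand) read as follows, 5′ to 3′, with GGGCGG boxes on either strand in capitals.
Galnt3: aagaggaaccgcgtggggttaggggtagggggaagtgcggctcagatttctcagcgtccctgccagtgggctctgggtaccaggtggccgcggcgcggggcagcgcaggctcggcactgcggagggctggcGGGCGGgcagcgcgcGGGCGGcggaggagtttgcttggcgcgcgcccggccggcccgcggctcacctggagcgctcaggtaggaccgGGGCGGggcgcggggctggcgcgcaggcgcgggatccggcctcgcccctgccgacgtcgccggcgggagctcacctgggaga
Galnt6: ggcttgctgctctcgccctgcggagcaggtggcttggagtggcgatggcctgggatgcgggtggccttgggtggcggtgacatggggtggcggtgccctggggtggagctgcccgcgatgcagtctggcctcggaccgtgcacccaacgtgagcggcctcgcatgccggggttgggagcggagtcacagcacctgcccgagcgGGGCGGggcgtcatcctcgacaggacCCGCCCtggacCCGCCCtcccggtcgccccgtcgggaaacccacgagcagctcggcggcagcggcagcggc
GGGCGG, the core of the box bound by SP and KLF factors, occurred 3 times in each of the windows shown, 2 times in that of Galnt7 and 0 times in that of Galnt10. Among all 32851 promoter windows of this length, 35.7% held it on either strand. The palindrome TTCNNNGAA, the core of the site of STAT factors, through which IL-22 signals, occurred 0 times in the windows of the 4 genes and in 8.3% of all windows. Most windows thus lack it. The motifs searched for CDX, HNF4A, the TATA box and CRE also occurred 0 times in the windows of the 4 genes. GC content was 76.7% for Galnt3 and 73.7% for Galnt6, against a median of 52.7% over all windows. A second Galnt6 window in the table (100720428–100720727) had a GC content of 57.7% and 0 GGGCGG boxes. These matches describe letters in a window and carry no statement on binding. The GENCODE M21 model of Galnt3, on the minus strand, starts at 66124994, inside the Galnt3 window. The 3 boxes of that window lie downstream of this start.

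Levels are given in TPM, reads per kilobase of gene scaled to the same total in every library, so genes can be compared within a library. Galnt6 had the highest mean TPM of the family in every group, with 109.7 ± 12.21 TPM at P24 and 133.1 ± 20.59 TPM at P14 (SD, n = 4 each). In the injected mice it had 129.4 ± 9.96 TPM under rmIl22 and 133.9 ± 10.2 TPM under PBS (SD, n = 3 each). Galnt1, a broadly expressed member, was the second in every group, with 94.09 ± 12.66 TPM at P24, 83.88 ± 11.52 TPM at P14, 87.94 ± 5.85 TPM under rmIl22 and 111.3 ± 6.76 TPM under PBS. The ranges of Galnt6 and Galnt1 overlapped at P24 and in no other group.

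The order below these 2 genes differed between ages. At P14 Galnt3 was the third, with 61.08 ± 9.996 TPM, followed by Galnt7 (51.29 ± 10.66 TPM), Galnt4 (42.28 ± 7.24 TPM) and Galnt12 (34.89 ± 4.61 TPM), each overlapping the next in range, and by Galnt10 (23.67 ± 1.78 TPM), which stood clear below. At P24 Galnt4 was the third with 55.22 ± 5.36 TPM, overlapping Galnt7 at 52.06 ± 6.88 TPM. Galnt12 (33.08 ± 2.91 TPM) and Galnt10 (27.37 ± 1.92 TPM) came next, and Galnt3 stood in the seventh place with 23.02 ± 1.71 TPM, and these 3 ranges overlapped in turn. Under rmIl22 the ranges of Galnt4, Galnt7, Galnt3, Galnt12 and Galnt10 each overlapped the next, and under PBS Galnt3 stood clear above Galnt7, which overlapped Galnt4, and Galnt12 overlapped Galnt10. In mm10 (GENCODE M21), Galnt6 lies on chromosome 15 at 100691813–100729376, Galnt1 on chromosome 18 at 24205344–24286818, Galnt7 on chromosome 8 at 57523828–57653032, Galnt12 on chromosome 4 at 47091909–47123070 and Galnt10 on chromosome 11 at 57645442–57787514.

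**Figure D1:**
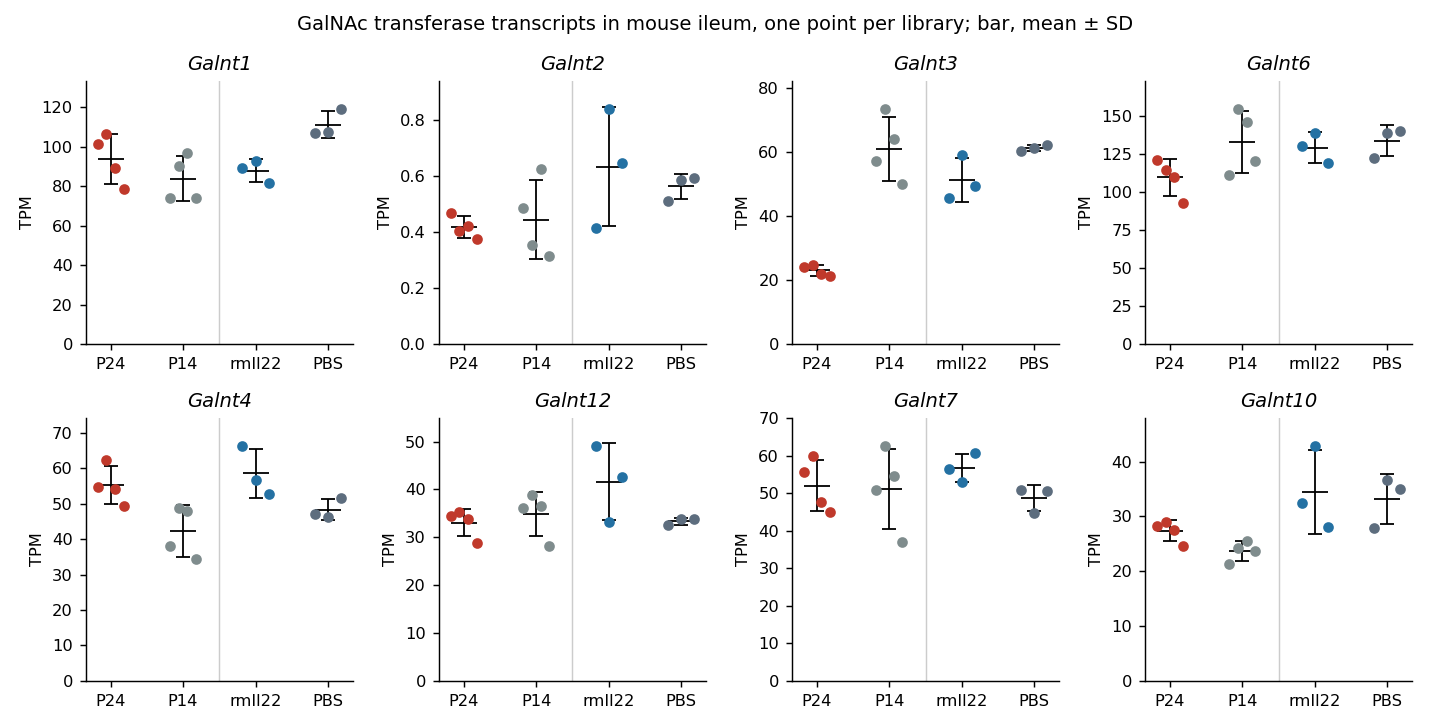
Expression of the 8 transferases in TPM (vertical axes, each from 0) in every library, by group (horizontal axes), with black bars for the mean ± SD. The 4 P24 libraries of Galnt3 lie between 21.27 and 24.87 TPM and the 4 P14 libraries between 49.93 and 73.37 TPM, while the groups of Galnt6 overlap at each comparison.

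Galnt2 was the eighth in every group, between 0.3142 and 0.838 TPM, which rested on 31 to 72 reads a library. In the GENCODE M21 annotation of mm10, Galnt2 lies on the plus strand of chromosome 8 at 124231391–124345724. Of its 4282 exon bases, 90.0% are also exon of Gm20388, a longer gene model on the same strand, which is listed at 0 in all 14 libraries. The exon bases of Gm20388 are in turn shared on the same strand, 97.5% with Galnt2 and 2.5% with Usp10. A count that drops shared reads would list Gm20388 at 0 at any level, so this 0 does not show that it is silent. The length behind the deposited Galnt2 values was 4282 bases, so its TPM was divided by all exon bases, those shared with Gm20388 included. The part of this overlap in the low Galnt2 values, in its place in the order and in the sums that include it was not tested. Galnt2 did not pass the filter on low values. Without that filter it was not called, at −0.02 with age (adjusted p = 0.846) and 0.05 with rmIl22 (adjusted p = 0.902). Gm20388 was looked up after these values were seen.

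The first comparison asks how the transferases differ in the ileum after and before the passage from milk to solid food, at P24 against P14. Galnt3 fell and Galnt4 rose, the 2 members called among the 7 tested. Over all 14651 genes tested 58.3% were called, 14.6% as higher and 43.7% as lower. The members' count moved with the scaling, to 4 of 7 where 57.7% of all genes were called after median scaling and 5 of 7 where 59.0% were called after quantile normalisation. A gene passed the filter with at least 1 TPM in at least 4 of the 8 libraries, and a call is an adjusted p under 0.05 from limma on log2(TPM + 1), with the adjustment over all genes tested. In whole tissue, fewer cells of a type and less RNA per cell cannot be told apart.

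Galnt3, which in humans is known for protecting the hormone FGF23 from cleavage, maps to the minus strand of chromosome 2 at 66082766–66124994. It had 24.02, 24.87, 21.9 and 21.27 TPM in P24 libraries 1, 2, 6 and 8, against 57.08, 73.37, 63.96 and 49.93 TPM in P14 libraries 1, 2, 4 and 5. Every P24 library was below every P14 library, and the 4 P24 libraries lay close together. The log2 fold change was −1.36 (SE 0.12, 95% interval −1.62 to −1.10, adjusted p = 2.33e-06), 0.39 times the P14 level on the log2(TPM + 1) scale, which understates the change of low genes. The reads behind the values numbered 1944 to 2515 a library at P24 and 5356 to 7177 at P14.

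Galnt4, known in humans for glycosylating the selectin ligand PSGL-1, maps to the plus strand of chromosome 10 at 99108159–99113247. It had 54.85, 62.38, 54.27 and 49.39 TPM in P24 libraries 1, 2, 6 and 8, against 38.01, 48.92, 47.9 and 34.31 TPM in P14 libraries 1, 2, 4 and 5. The groups did not overlap, but the lowest P24 library and the highest P14 library were close. The log2 fold change was 0.39 (SE 0.13, 95% interval 0.11 to 0.67, adjusted p = 0.0209). This call was lost without P14 library 1 (adjusted p = 0.051), P14 library 5 (0.0501) or P24 library 2 (0.0603), and held when any other library was left out. Of the exon bases of Galnt4, 8.25% are shared on the same strand with Poc1b, a centriole gene, which had 7.222 ± 0.18 TPM at P24 and 6.519 ± 0.79 TPM at P14 (log2 fold change 0.13, adjusted p = 0.284). After median scaling Poc1b was called, at 0.41 (adjusted p = 3.07e-04).

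The other 5 members tested were not called. Galnt6 had a log2 fold change of −0.27 (95% interval −0.55 to 0.01, adjusted p = 0.0842), and its P24 libraries, 92.65 to 121.1 TPM, overlapped its P14 libraries, 111.2 to 154.6 TPM. The value for Galnt10 was 0.20 (adjusted p = 0.0842) and that for Galnt1 0.16 (adjusted p = 0.28). Galnt7 gave 0.04 (95% interval −0.30 to 0.37, adjusted p = 0.849) and Galnt12 −0.07 (95% interval −0.32 to 0.18, adjusted p = 0.621).

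These differences depend on how libraries are scaled. The median log2 fold change of all tested genes was −0.25 in the deposited TPM, and 25.1% of the called genes were higher at P24. Reg3b, an antimicrobial lectin, took 54470 to 79180 TPM at P24 and 459.9 to 1008 TPM at P14. Rn7sk, a small nuclear RNA, moved the other way, with 71470 to 96140 TPM at P24 and 107300 to 145300 TPM at P14. After each library was scaled to its median gene, the median fell at 0.02, 51.1% of the called genes were higher and 57.7% of all genes were called, 29.5% as higher and 28.3% as lower. On that scale 4 of the 7 members were called. Galnt4 rose by 0.69 (adjusted p = 0.00031), Galnt10 by 0.50 (0.0014) and Galnt1 by 0.47 (0.00641), and Galnt3 fell by 1.06 (adjusted p = 1.6e-05). Galnt6 and Galnt12 changed sign, with 0.04 and 0.23, and neither was called.

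**Figure D2:**
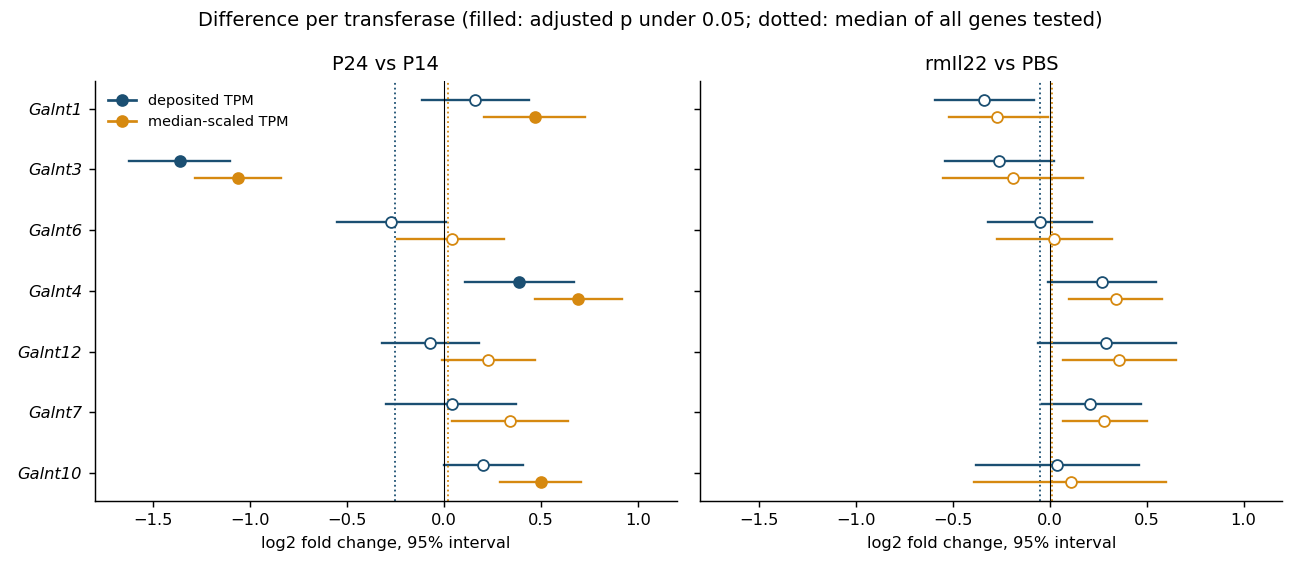
Log2 fold changes (horizontal axis) with 95% intervals for the 7 members tested, P24 over P14 on the left and rmIl22 over PBS on the right, from deposited TPM and from median-scaled TPM, with dotted lines at the median of all genes tested. Galnt3 at −1.36 and −1.06 lies left of both dotted lines with age, and no marker of the rmIl22 comparison is filled.

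The authors' deposited table of the age comparison lists all 8 members. It gives Galnt3 a log2 fold change of −1.08 (adjusted p = 8.31e-14), Galnt4 0.72 (9.49e-09), Galnt10 0.53 (0.00507), Galnt1 0.50 (4.12e-04) and Galnt7 0.36 (0.0262). In the authors' deposited table Galnt12 has 0.25 (adjusted p = 0.0944), Galnt2 0.25 (0.522) and Galnt6 0.05 (0.814). These values lie nearer the median-scaled than the deposited TPM scale.

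The share of each gene in the summed TPM of the 8 transferases does not depend on library scaling. Galnt3 made up 5.68 to 6.25% of the sum at P24 and 13.55 to 14.87% at P14. Galnt4 made up 13.05 to 14.5% at P24 and 9.32 to 10.15% at P14, and Galnt1 23.04 to 24.61% at P24 and 18.35 to 20.48% at P14. None of these 3 pairs of ranges overlapped. Galnt10 also took a separate range, 6.70 to 7.23% at P24 and 4.92 to 6.42% at P14. The ranges of Galnt6, Galnt7, Galnt12 and Galnt2 overlapped. Shares of 1 sum are tied, so the lower Galnt3 share at P24 by itself raises the shares of the other members. Shares without Galnt3, and how often shares of other genes are apart, were not computed. The ratio of Galnt3 to its relative Galnt6 was 0.198 to 0.230 at P24 and 0.414 to 0.513 at P14. The ratio of Galnt4 to its relative Galnt12 was 1.59 to 1.77 at P24 and 1.05 to 1.31 at P14. The summed TPM of the family was 340.7 to 433.3 at P24 and 367.9 to 493.5 at P14, with overlapping ranges.

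**Figure D3:**
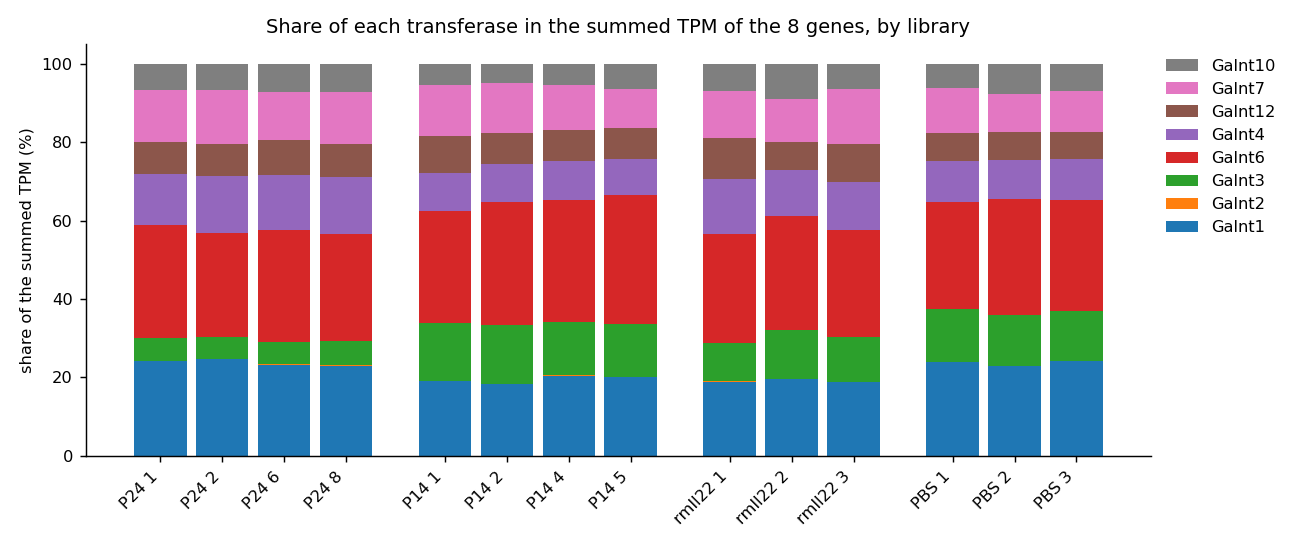
Share of each transferase in the summed TPM of the 8 genes (vertical axis, percent), 1 bar per library (horizontal axis). The Galnt3 band is 5.68 to 6.25% in the P24 bars and 13.55 to 14.87% in the P14 bars, while the Galnt4 and Galnt1 bands are wider at P24.

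By role, the 4 peptide-preferring members summed to 192.8 to 247.3 TPM at P24 and 243.1 to 318.9 TPM at P14. The 4 glycopeptide-preferring members summed to 147.9 to 186.6 TPM at P24 and 123.3 to 174.6 TPM at P14. Of the peptide-preferring members 0 rose and 1 fell of 3 tested, with a median log2 fold change of −0.27. Of the glycopeptide-preferring members 1 rose and 0 fell of 4 tested, with a median of 0.12, beside −0.25 over all genes. Of all genes tested, 14.6% were called higher and 43.7% lower. The fall rests on Galnt3 alone and the rise on Galnt4 alone. On the median-scaled values 1 peptide-preferring member rose and 1 fell, with a median of 0.04. On that scale 2 glycopeptide-preferring members rose and 0 fell, with a median of 0.42, beside 0.02 over all genes. There 29.5% of all genes were called higher and 28.3% lower.

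The second comparison asks what IL-22, a cytokine that acts on epithelial cells, did before weaning. None of the 7 members tested was called with rmIl22 against PBS, where 389 of 14456 genes (2.69%) were called. At an unadjusted p under 0.05, 1 member stood in the deposited TPM, where 15.5% of all genes did, and 4 after median scaling, where 16.0% of all genes did. After median scaling 0 members and 2.05% of all genes were called. The fit on recovered reads also called 0 members. The authors' deposited table of this comparison, whose 1102 genes reach an adjusted p of 0.00999 at most, lists 0 of the 8 members.

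Galnt1 had 89.14, 93.09 and 81.59 TPM in rmIl22 libraries 1, 2 and 3, against 107.2, 107.5 and 119.1 TPM in PBS libraries 1, 2 and 3. All rmIl22 libraries were below all PBS libraries, with a log2 fold change of −0.34 (95% interval −0.59 to −0.08, adjusted p = 0.178). Its share of the family sum was 18.77 to 19.5% under rmIl22 and 22.89 to 24.12% under PBS. For Galnt3 the libraries held 45.58, 58.94 and 49.55 TPM under rmIl22, against 60.44, 61.18 and 62.28 TPM under PBS. These groups were apart in TPM but overlapped after median scaling, and the log2 fold change was −0.26 (95% interval −0.54 to 0.02, adjusted p = 0.375). In the family sum, Galnt3 made up 9.69 to 12.34% under rmIl22 and 12.62 to 13.47% under PBS, and its ratio to Galnt6 was 0.349 to 0.425 under rmIl22 and 0.440 to 0.495 under PBS. Both measures were apart between the groups, but how often shares or ratios of other genes are apart was not computed. Shares of 1 sum are tied, so higher values of other members lower the Galnt3 share.

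Galnt4 was at 66.33, 56.85 and 52.83 TPM under rmIl22, against 46.98, 46.18 and 51.74 TPM under PBS. The groups did not overlap, and the log2 fold change was 0.27 (95% interval −0.01 to 0.55, adjusted p = 0.349). Its share of the family sum was 11.91 to 14.1% under rmIl22 and 9.83 to 10.48% under PBS, also apart. Galnt7 was at 56.59, 53.08 and 60.66 TPM under rmIl22, against 50.99, 44.83 and 50.63 TPM under PBS, again without overlap, with 0.21 (95% interval −0.04 to 0.47, adjusted p = 0.427). Galnt12 was at 49.08, 33.13 and 42.61 TPM under rmIl22, against 32.54, 33.85 and 33.73 TPM under PBS. Its second rmIl22 library lay among the PBS libraries, and the log2 fold change was 0.29 (95% interval −0.06 to 0.65, adjusted p = 0.439). Galnt10 (0.04, 95% interval −0.38 to 0.46) and Galnt6 (−0.05, 95% interval −0.32 to 0.22) lay near 0, with adjusted p = 0.961 and 0.91.

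Thus 4 of the 7 members tested had rmIl22 and PBS libraries that did not overlap in TPM, where 21.1% of all genes tested did. With age the number was 2 of 7, where 52.4% did. After median scaling it was 4 of 7 in each comparison, where 22.0% of all genes did with rmIl22 and 53.0% with age. The 3 PBS libraries all carried Ddx3y and almost no Xist, as did 1 rmIl22 library, while the other 2 rmIl22 libraries had 28.4 and 53.5 TPM of Xist, so sex differs between these groups. The age groups were not matched for sex either. Ddx3y marked P14 libraries 1 and 2 and P24 library 1. Xist marked P14 libraries 4 and 5 and P24 libraries 2, 6 and 8. With a sex term 0 members were called with rmIl22, and Galnt3 and Galnt4 (adjusted p = 0.0293) were called with age. Because all PBS libraries carried Ddx3y, that term rests on the rmIl22 libraries alone in the rmIl22 comparison.

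The difference between the age and the IL-22 effects was tested in 1 fit over the 14 libraries, and the comparisons share no library. Galnt3 was the only member called among the 7 tested in the deposited TPM, with P24 over P14 minus rmIl22 over PBS at −1.10 on the log2 scale (SE 0.17, 95% interval −1.47 to −0.73, adjusted p = 6.64e-04). Of 15702 genes tested, 23.8% were called. For Galnt1 the difference was 0.50 (95% interval 0.13 to 0.87, adjusted p = 0.0517), and it was called after median scaling, at 0.75 (adjusted p = 0.00726), where Galnt3 stood at −0.86 (0.00434) and 27.1% of all genes were called. For Galnt4 it was 0.12 (95% interval −0.28 to 0.51, adjusted p = 0.673).

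The other family members were low in this tissue. The deposited values covered 11 further GALNT genes, of which 5 passed the filter, and all 5 were called with age, 1 higher and 4 lower. Over all genes 14.6% were called higher and 43.7% lower. After median scaling the counts were again 1 and 4, beside 29.5% and 28.3% over all genes. Galnt5 rose, with 10.03 ± 1.01 TPM at P24 and 6.969 ± 1.54 TPM at P14 (log2 fold change 0.49, adjusted p = 0.0135). Galnt11, known in mice for a kidney role on megalin, fell to 5.281 ± 0.35 TPM at P24, against 11.85 ± 1.201 TPM at P14 (−1.03, adjusted p = 7.42e-06). Galnt16 (−1.22), Galnt18 (−0.83) and Galnt15 (−0.59) also fell, from adjusted p of 9.02e-05 to 0.0067. With rmIl22 0 of these 5 were called.

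The log2 fold changes of genes for the sugar donor spanned a wider range than those of the members. Of 10 genes for making UDP-GalNAc and bringing nucleotide sugars into the Golgi 9 were tested with age, 5 rose and 3 fell. Over all genes 14.6% rose and 43.7% fell by the same call. After median scaling 5 of the 9 rose and 2 fell, beside 29.5% and 28.3% over all genes. Uap1, which makes the UDP sugar, rose by 1.73 (adjusted p = 4.67e-08), with 43.19 ± 3.29 TPM at P24 and 12.36 ± 1.02 TPM at P14. The rise was also called for Gnpnat1, the acetylating enzyme of the hexosamine pathway (log2 fold change 1.25), and Gfpt1, its entry enzyme (0.91). The nucleotide sugar carriers Slc35a2 (0.69) and Slc35d2 (0.64) also rose, with all adjusted p of these 5 at most 5.54e-04.

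Uap1l1, a relative of Uap1, fell to 22.7 ± 2.32 TPM at P24, against 216.5 ± 15.8 TPM at P14 (−3.20, adjusted p = 3.29e-10). Galk2, the kinase that salvages free GalNAc, fell to 14.54 ± 0.30 TPM at P24, against 48.02 ± 5.59 TPM at P14 (−1.65, adjusted p = 8.25e-08). Pgm3 was called at −0.22 (adjusted p = 0.048), a call lost in 11 of 15 alternatives, 6 of the 8 that leave out a library among them, and it stood at 0.07 (0.363) after median scaling. With rmIl22 1 of the 9 was called. Uap1l1 had 132.1 ± 23.8 TPM under rmIl22 and 239.5 ± 34.1 TPM under PBS (−0.86, adjusted p = 0.0491), a call lost after median scaling (0.0919) and in 12 of 14 alternatives.

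Among 13 tested genes of the steps after the first GalNAc, 7 rose and 3 fell with age, where 14.6% of all genes rose and 43.7% fell. After median scaling 7 rose and 2 fell, beside 29.5% and 28.3% of all genes. Gcnt1, which branches the chain into core 2, had 15.69 ± 1.63 TPM at P24 and 2.25 ± 0.23 TPM at P14 (2.36, adjusted p = 9.16e-09). B3gnt7, a GlcNAc-adding extension enzyme, had 16.38 ± 6.27 TPM at P24 and 1.51 ± 0.53 TPM at P14 (2.75, adjusted p = 1.73e-06). St3gal1, which caps core 1 with sialic acid, fell to 6.708 ± 1.37 TPM at P24, against 170.2 ± 19.0 TPM at P14 (−4.48, adjusted p = 2.23e-10). St6galnac2, which adds sialic acid to the GalNAc itself, fell by 0.87 (adjusted p = 3.9e-05). With rmIl22 0 of 12 were called.

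Of 11 mucin genes 4 were tested. Muc2, the secreted gel-forming mucin of goblet cells, had 125.0 ± 41.6 TPM at P24 and 118.9 ± 101 TPM at P14 (log2 fold change 0.31, adjusted p = 0.556). The membrane mucin Muc3 had 509.3 ± 458 TPM at P24 and 62.06 ± 7.76 TPM at P14 (2.67, adjusted p = 1.77e-04), with the P24 libraries between 233.1 and 1191 TPM. Muc13, also a membrane mucin, had 1754 ± 461 TPM at P24 and 1143 ± 236 TPM at P14 (0.61, adjusted p = 0.0177), a call lost in 3 of 15 alternatives. Muc3a was low and not called, with 5.381 ± 1.783 TPM at P24 and 7.287 ± 2.585 TPM at P14 (−0.38, adjusted p = 0.195). With rmIl22 Muc3a stood at 0.15 (adjusted p = 0.871). Muc3 was the mucin called with rmIl22, at 197.5 ± 37.6 TPM under rmIl22 and 74.95 ± 22.0 TPM under PBS (1.41, adjusted p = 0.0276), a call lost in 10 of 14 alternatives, median scaling among them (0.0579).

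**Figure D4:**
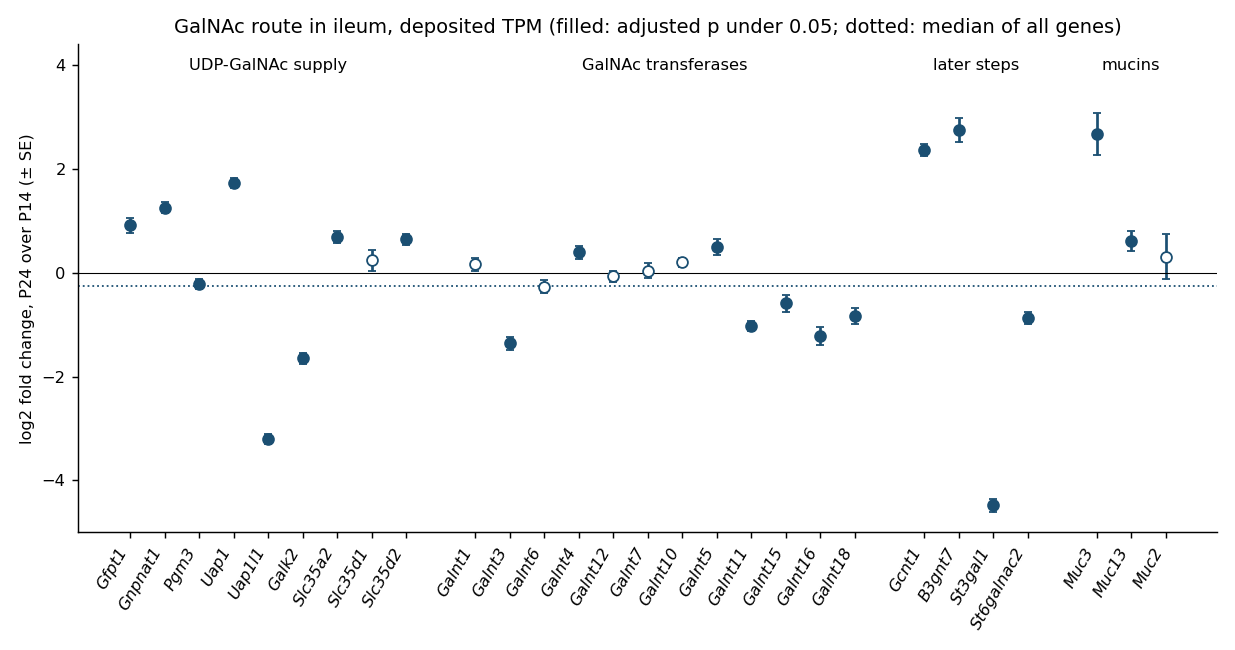
Log2 fold change of P24 over P14 (vertical axis, ± SE) for genes of UDP-GalNAc supply, the GalNAc transferases tested, later chain steps and mucins (horizontal axis), with a dotted line at −0.25, the median of all genes tested. The 7 members tested lie between −1.36 and 0.39, inside the span from St3gal1 at −4.48 to B3gnt7 at 2.75. The later-step genes shown were picked for the largest called rises and falls of their list, so their wider span follows from that choice.

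Markers of other cell types moved with age as well. Of 15 goblet cell markers 11 rose and 1 fell, and their summed level was 19040 to 20930 TPM at P24 and 11070 to 14550 TPM at P14. All 10 Paneth cell markers rose, with sums of 31470 to 33450 TPM at P24 and 5406 to 8734 TPM at P14, and 8 of 14 enterocyte markers rose and 2 fell. Of 10 fibroblast and matrix markers 8 fell, as did all 7 endothelial and all 8 neuron and glia markers. These counts are from deposited TPM, where 14.6% of all genes were called higher and 43.7% lower. After median scaling, with 29.5% higher and 28.3% lower, 12 goblet markers rose and 1 fell, and 11 enterocyte markers rose and 2 fell. On that scale all 10 Paneth markers rose, and 8 fibroblast and matrix, 6 endothelial and 7 neuron and glia markers fell, with 0 risen in these last 3 lists. No goblet, Paneth or enterocyte marker was at 0 in every library of any group. The part of these shifts in the transferase differences was not tested. Of 29 genes of Golgi structure and trafficking 3 rose and 8 fell in deposited TPM, and 12 rose and 5 fell after median scaling. Among them B4galt1, a Golgi galactosyltransferase, rose by 1.39 with age (adjusted p = 1.24e-05) and was called higher with rmIl22 (0.90, adjusted p = 0.0283), a call lost in 7 of 14 alternatives. Of the cell-type markers tested with rmIl22, the macrophage marker Csf1r was called, a call lost in 3 of 14 alternatives. It had 33.74 ± 5.42 TPM under rmIl22 and 76.61 ± 8.52 TPM under PBS (−1.16, adjusted p = 0.0151). The other 7 of the 8 macrophage and dendritic markers tested were not called.

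The 5 genes whose log2(TPM + 1) was most like that of Galnt3 over the 14 libraries, of 12361 genes at 1 TPM or more in every library, were Bhlhe40, Nhlrc3, 1190002N15Rik, Galns and H6pd, with Pearson's r of 0.997 to 0.99. Bhlhe40, a transcription factor, averaged 21.35 TPM at P24, 91.75 TPM at P14, 67.05 TPM under rmIl22 and 91.4 TPM under PBS. Galns, a lysosomal sulfatase, averaged 20.7 TPM at P24, 256.3 TPM at P14, 138.5 TPM under rmIl22 and 210.3 TPM under PBS. For Galnt3 every P24 library lay below all other libraries, and such an r carries that split by age. For Galnt4 the nearest were Rap1gds1, Cant1, Sort1, Hiatl1 and Cd2ap, with r of 0.955 to 0.939. Cant1, a Golgi nucleotidase that clears UDP, averaged 73.56 TPM at P24, 59.56 TPM at P14, 74.46 TPM under rmIl22 and 65.15 TPM under PBS.

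Between members the highest r over the 14 libraries was 0.76, for Galnt3 and Galnt6, followed by 0.73 for Galnt7 and Galnt12. The lowest was −0.35, for Galnt3 and Galnt4. Within P14, libraries 2 and 4 were above libraries 1 and 5 for Galnt1, Galnt3, Galnt4, Galnt6, Galnt7, Galnt12 and Galnt10, and the same 2 libraries had the higher median TPM of all genes tested.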

How the data were processed

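Stranded total RNA libraries of whole ileum were prepared after removal of ribosomal RNA (labels' protocols). The authors deposited 1 table of TPM for all genes and libraries and 2 tables of comparisons, whose log2 fold changes and adjusted p-values carry no replicate values and were only quoted. Tools listed in the submitters' processing notes, with no role, are DESeq2 1.14, FastQC 0.11.2, HTSeq 0.6.1p1 and STAR 2.4.0f, with the build mm10. No source used here gives the strand setting of the counts, and values of overlapping genes are uncertain. The gene lengths behind the members' TPM equal the exon bases of GENCODE M21.

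Of 46882 rows, 27 whose symbols had turned into dates were left out. TPM + 1 was taken to log2 and fitted with limma 3.58.1 (R 4.3.3), each comparison on its own libraries, after a filter of 1 TPM in at least 4 (age) or 3 (rmIl22) libraries. Tests were two-sided, with Benjamini-Hochberg adjustment over all genes tested. The fits were also run on simulated reads in which a small set of genes changed in random directions. A shift of many genes in the same direction, as in the deposited TPM with age, was not simulated. From the steps in the TPM, reads came out whole (tolerance 0.01) for 100.0% of 31189 genes, which gave 35.6 to 46.5 M reads a library. The labels call the replicates biological. The P14 and P24 columns carry numbers that are not the labels' replicate numbers, so they were assigned to their group only.

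The members and lists were chosen with earlier results of these data known. A gene of the UDP-GalNAc list is not reported here. Named genes were all members and Poc1b, genes of the other GALNT, UDP-GalNAc and mucin lists, at most the 2 called genes with the largest rise and fall of each other list, and the 5 genes most like Galnt4 and Galnt3. Reg3b, Rn7sk, Xist and Ddx3y were named for scaling and sex. Alternatives were a pseudocount of 0.1, no filter, median scaling, quantile normalisation, all 14 libraries in the fit, each library left out and a replicate block. A voom fit on the recovered reads and a sex term were added after seeing the data. Same-numbered rmIl22 and PBS libraries deviated together with r of −0.07, 0.33 and −0.05.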

Additional observations from a re-analysis of the deposited data

How the results depend on the processing

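The fall of Galnt3 at P24 kept its direction and its call in all 15 alternatives, between −1.45 and −1.06, and its difference from the IL-22 effect did so in all 20. With rmIl22, 0 members were called in all 14 alternatives. With age, the 2 members called became 4 after median scaling, 5 after quantile normalisation, where Galnt6 fell by 0.24 (adjusted p = 0.0222), and 5 by voom on recovered reads, where Galnt7 was called (0.0485). They ranged from 1 to 2 with each library left out, and the library was P14 5 or P24 2 where the count was 1. Without P14 library 1 the 2 called were Galnt3 and Galnt6 (−0.35, adjusted p = 0.0308). In the test of the difference, the count of 1 became 2 after median scaling, after quantile normalisation and by voom. It ranged from 1 to 3 with a library left out, with 2 without P14 library 4 or P24 library 8 and 3 without rmIl22 library 2, where Galnt12 was called at −0.51 (adjusted p = 0.0335).

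Signs changed for members near 0. With age, Galnt6 went to 0.04 after median scaling and 0.03 by voom. Galnt12 went to 0.23 after median scaling, 0.14 after quantile normalisation and 0.23 by voom. Galnt7 ranged from −0.11 to 0.14 with a library left out. Pgm3 went to 0.07, 0.03 and 0.06 after median scaling, quantile normalisation and by voom. With rmIl22, Galnt6 went to 0.02, 0.07 and 0.03 under the same 3 and ranged from −0.11 to 0.01 with a library left out. Galnt10 ranged from −0.13 to 0.17 with a library left out and stood at −0.02 with the sex term. In the difference, after median scaling and by voom, Galnt6 stood at 0.02 and 0.02 and Galnt7 at 0.07 and 0.06. The cause was not tested.

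Over all genes, the 389 called with rmIl22 became 98 with no filter, 1058 with all 14 libraries in the fit and 122 with the sex term. They ranged from 4 to 1309 with a library left out, with 4 without PBS library 3, 14 without PBS library 1 and 1309 without rmIl22 library 2. The 3734 called in the difference ranged from 2392 to 4983. The replicate numbers of rmIl22 and PBS are shared in the labels but the libraries did not deviate in pairs, and with a replicate block 280 genes and 0 members were called and the calls of Uap1l1 (adjusted p = 0.1) and Muc3 (0.0587) were lost. For P24 against P14 and for the difference, which has these libraries, no blocked fit was made. No paired analysis was possible because there the P14 and P24 columns carry no replicate numbers of the labels. No member had a P24 or P14 library far from the other 3. The reads of Galnt2, 31 to 72 a library, and its overlap with Gm20388 limit any statement on it.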
